A study of Glycine max with 6 samples.

Results

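Gene expression in soybean (Glycine max, strain KF1) hairy roots carrying a GmPHD6 overexpression construct was compared with that in K599 control roots across the transcriptome outside one stretch of chromosome 13. Hairy roots are transformed roots that grow from stem tissue after infection with Agrobacterium rhizogenes, and strain K599 of that bacterium was injected in both groups. The overexpression group (GmPHD6-OE) and the control group (K599, genotype given as wild type) had 2 libraries each, and an RNAi group with 2 libraries is cited where its level helps to read a gene. The labels do not say whether the control bacteria carried an empty construct, how many roots were pooled in a library, which promoter drove GmPHD6, or whether replicate libraries are separate plants. The column headed G6 was taken to hold GmPHD6-OE, since the names of the other columns match the RNAi and control groups.

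Members were the gene models whose status was OK in all 3 columns and whose level reached 1 FPKM (fragments per kilobase of transcript, scaled to sequenced fragments) in overexpression or control. Of 56044 gene models, 55934 had the flags and 32260 also reached that level. The stretch of chromosome 13 (3083566 to 4226773) held 47 of these, and leaving them out gave 32213 members. The members just inside the level limit stood at 0.823 FPKM in overexpression against 1.0001 in control and at 0.981 against 1.0004, and those just outside at 0.99995 against 0.999 and at 0.9994 against 0.912.

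GmPHD6 is an Alfin-like protein, a plant family with a DNA-binding region in the N-terminal part and a PHD finger at the C-terminal end. PHD fingers read the methylation state of histone tails in many chromatin proteins, and the founding member of the family, Alfin1 of alfalfa, is known for a role in root growth and salt tolerance. Hairy roots are often used in soybean to test a factor in root tissue without raising a stable transgenic line, and each such root is known to come from its own transformation event.

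The deposited gene models are numbered and carry no names, and 0 of 59048 genes in RefSeq's table for assembly Glycine_max_v4.0 share an ID with them, so neither the function of a gene model nor any list of named genes could be given. RefSeq places a gene named PHD6 on chromosome 9. On that chromosome the largest difference among tested gene models was at the one from 6937813 to 6941687, chosen after its values were seen. It stood at 689 FPKM (authors' bounds 677 to 702) in overexpression, at 44.8 (42.1 to 47.5) in RNAi and at 6.92 (5.86 to 7.97) in control. Its log2(FPKM + 1) difference of overexpression minus control was 6.45, and the next largest on chromosome 9 was 2.91. Whether this gene model is GmPHD6 is not stated by the files, so the level of the targeted gene was not checked.

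Each group had a single deposited value per gene, so the columns themselves allow no SD and no test of replicates. The authors' bounds narrowed with level as counting error does and were read as leaving out the spread between roots. The sources used here do not say what the bounds cover. Taking a bound to be 2 counting SDs away from its value, 14651386 fragments per library stood behind the overexpression column and 15226738 behind the control column. Without the stretch the columns summed to 672250 FPKM in overexpression and 661463 in control, and the stretch had taken 19.3% and 2.28% of them. Of the sums without it, the 50 highest genes held 15.5% in overexpression and 16.9% in control, and the 10 highest held 7.78% and 10.3%. That order rested on a single gene model of 102 bases on chromosome 4 (49969512 to 49969614), listed at 0 in overexpression, at 20072 FPKM (bounds 0 to 76513) in RNAi and at 23697 (0 to 70780.5) in control, where it made up 3.58% of the sum. Without it the 10 highest genes held 7.78% in overexpression and 7.27% in control, the 50 highest 15.5% and 13.9%, and the control sum was 637766 FPKM.

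Low genes gave a view of single libraries. The fragment number computed from their bounds is a mean over a pair of libraries, and since each library holds whole fragments and the depths differ, it could be split into its library parts for 69.6% of 12817 overexpression values and 71.1% of 13042 control values. Values moved off this grid were split in 0.828% and 0.852% of cases. Low genes here and below were not held to the 1 FPKM limit, so they can include gene models that are not members. Split fragments are given scaled to equal depth and to the FPKM of the control column, so they are not whole numbers. The deeper library of a group is called A and the shallower B, and their replicate numbers are not known. Library A was 1.19 times as deep as library B in overexpression and 1.04 times in control. The 2 overexpression libraries lay further from each other than the 2 control libraries. Among genes with a mean of at least 5 fragments, 34.8% of 4543 stood at least 2-fold apart between overexpression libraries. The share was 20.5% of 4023 between control libraries and 28.5% of 4628 between RNAi libraries, so wide spread was not particular to overexpression. The spread between libraries of a group may be technical, and the p-values below measure that spread only.

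Most transcripts stood at nearly the same level in overexpression and control roots. A difference is log2(FPKM + 1) of overexpression minus that of control, a scale that understates changes of low genes. Of 32011 members above 0 in both columns, 90.4% lay within 1.5-fold and 97.5% within 2-fold of control on this scale. In whole roots, fewer cells of a type and less RNA per cell cannot be told apart. The median difference was 0.02, the 5th percentile -0.62 and the 95th percentile 0.53. Among 944 genes with a mean of at least 100 FPKM, whose bounds are narrow, 68.4% had bounds that did not overlap, but 97.2% lay within 2-fold. For these abundant transcripts small differences exceeded counting error in most cases, while large ones were few.

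A gene passed the fold rule with at least a 2-fold difference on this scale and bounds that did not overlap. With the bounds read as counting error, the rule takes no account of the spread between libraries. In overexpression 233 genes were higher (0.723% of those tested) and 453 lower (1.41%), 2.13% in all. Lower genes outnumbered higher genes on each of the 20 chromosomes. Larger differences had another balance: at 4-fold or more 40 genes were higher and 50 lower, and at 8-fold or more 13 were higher and 3 lower. The gene nearest to the rule on the higher side stood at 7.34 FPKM in overexpression against 3.17 in control (difference 1.0006), and one with a difference of 0.998 did not pass, at 15.6 against 7.33. On the lower side the nearest gene stood at 15.02 against 31.1 (difference -1.002), and one with -0.99998 did not pass, at 0.16 against 1.32.

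**Figure D1:**
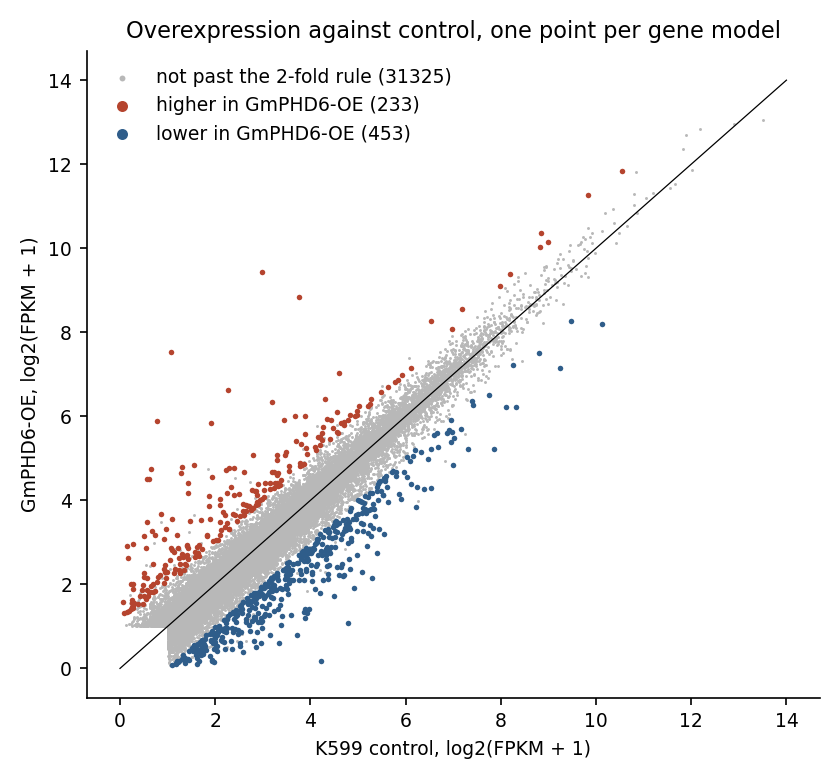
Level of each gene model above 0 in both columns, with K599 control on the horizontal and GmPHD6-OE on the vertical axis, both as log2(FPKM + 1), and the line of equal level. The 233 higher and 453 lower genes past the 2-fold rule are coloured, and 97.5% of genes lie within 2-fold of the line.

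The higher genes were few and held a small share of the RNA in each column. That this share was larger in overexpression than in control follows from how these genes were chosen. Together the higher genes took 18154 FPKM in overexpression, 10062 in RNAi and 6454 in control, or 2.70%, 1.37% and 0.976% of the recomputed columns. The 453 lower genes took 4350 FPKM in overexpression, 13180 in RNAi and 12996 in control, or 0.647%, 1.80% and 1.96%. The 4 genes with the largest gain in FPKM made up 44.8% of the gain of the higher genes, and the 4 with the largest loss made up 22.7% of the loss of the lower genes. The median level of the higher genes was 13.9 FPKM in overexpression against 3.73 in control, and that of the lower genes 3.33 against 10.8.

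By the rule for naming, genes were taken by their change in FPKM. Glyma.08G339500 (chromosome 8, 45591087 to 45592292) gained most. It stood at 3643 FPKM (bounds 3591 to 3695) in overexpression, at 904 (880 to 928) in RNAi and at 1496 (1468 to 1525) in control, a difference of 1.28 between overexpression and control. It was the 7th highest gene of the overexpression column outside the stretch and the 18th of the control column as listed. Glyma.10G297000 (chromosome 10, 51376383 to 51376801) followed with 2459 FPKM (2407 to 2511) in overexpression, 1130 (1095 to 1164) in RNAi and 908 (880 to 937) in control, a difference of 1.44. Both genes were thus already among the abundant root transcripts of the control column.

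Glyma.02G064100 (chromosome 2, 5741317 to 5742800) lost most. It stood at 290 FPKM (281 to 300) in overexpression, at 160 (153 to 167) in RNAi and at 1124 (1106 to 1141) in control, a difference of -1.95. It was the 24th highest gene in control and the 189th in overexpression. Glyma.10G006900 (chromosome 10, 678248 to 679163) stood at 141 FPKM (133 to 148) in overexpression, at 20.8 (17.9 to 23.7) in RNAi and at 602 (587 to 616) in control, a difference of -2.09. For both genes the RNAi level was the lowest of the 3 columns. The comparisons of overexpression and of RNAi with control use the same control libraries.

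The most abundant control transcripts mostly lay near control in overexpression, though less often than genes in general. Of the 50 highest control genes with a fold, from 687 to 11685 FPKM in control, 39 lay within 1.5-fold of control in overexpression. Past the rule, 2 of the 50 were higher and 2 lower, against 0.723% and 1.41% of all tested genes. The median difference of the 50 was 0.19, against 0.02 over all tested genes. At a mean of 300 FPKM and over, 78.9% of genes with a fold lay within 1.5-fold, against 90.4% of all. In that class 6.94% of tested genes passed the rule, against 2.13% of all. The median difference also went up with level over all genes. It was 0.001 at a mean of 1 to 3 FPKM (7535 genes), 0.02 at 10 to 30 (7758 genes), 0.09 at 100 to 300 (773 genes) and 0.17 at 300 and over (171 genes). In the RNAi column, measured against the same control, the medians of those classes were -0.01, 0.04, 0.17 and 0.10.

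Chromosome 2 stood apart from the other 19 chromosomes. Its 1815 genes with a fold had a median difference of -0.10, while the medians of the other chromosomes ran from 0.002 to 0.05. On chromosome 2, 64.2% of genes were lower in overexpression than in control, against 42.7% to 49.7% on the others. Past the fold rule, 46 of its 1824 tested genes were lower (2.52%, against 1.41% of all tested genes) and 6 higher (0.329%, against 0.723%). Chromosome 11 had the next highest share of lower genes, 2.09%. In the RNAi column, set against the same control libraries, the median of chromosome 2 was 0.03, within the range of 0.01 to 0.06 over all 20 chromosomes.

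**Figure D2:**
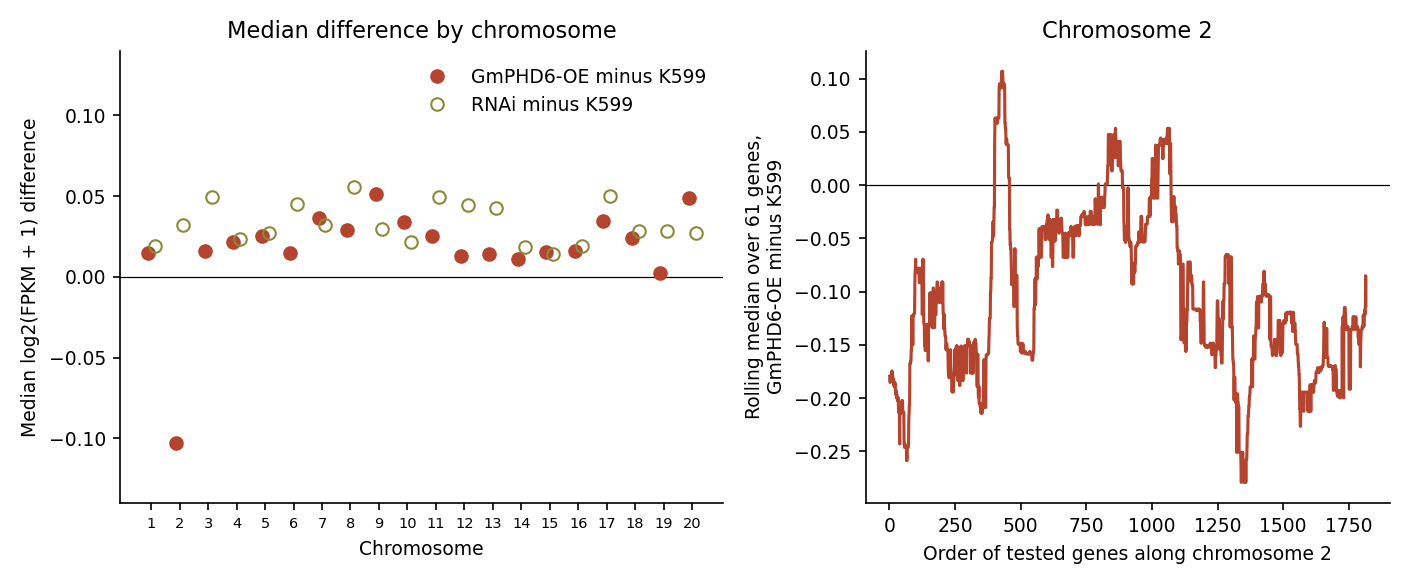
Left, median log2(FPKM + 1) difference of each chromosome for GmPHD6-OE minus K599 (filled) and RNAi minus K599 (open); right, rolling median over 61 neighbouring genes of GmPHD6-OE minus K599 along chromosome 2 in gene order. Chromosome 2 lies at -0.10 while the other filled points lie between 0.002 and 0.05, and the right panel stays below 0 over most of the chromosome.

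The shift on chromosome 2 ran along most of its length and over all levels. In consecutive bins of 100 genes, 15 of its 18 bins had a median below 0 and 10 had one below -0.1. Of 310 such bins on the other chromosomes, 81 had a median below 0 and 1 had one below -0.1. That bin lay on chromosome 13 from 36153258 to 37258520, with a median of -0.13. On chromosome 2 the lowest bin (41753654 to 43300008) had a median of -0.21, and 72% of its genes were lower in overexpression. The first bin of the chromosome (2247 to 1391937) had a median of -0.20 and the last (47218886 to 48297398) one of -0.16. Bins near 0 lay from 5785450 to 7118481 (median 0.02), from 13958440 to 15383116 (0.02) and from 25975510 to 36676028 (0.04). By level, the median on chromosome 2 was -0.09 at 1 to 3 FPKM against 0.01 elsewhere, -0.12 at 10 to 30 FPKM against 0.03, and -0.08 at 100 to 300 FPKM against 0.10.

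Among low genes, the shift of chromosome 2 was seen in 1 of the 2 overexpression libraries. These genes were not held to the 1 FPKM limit, and how many of them are members was not counted. For 3760 low genes whose fragments could be placed in both columns, each library was set against the mean of the control libraries and centred on its own median. The 189 genes of chromosome 2 had a median log2(fragments + 1) difference of -0.39 in overexpression library A and of 0.02 in library B, against -0.04 and 0.04 in the control libraries A and B. The other 19 chromosomes ran from -0.18 to 0.20 in overexpression library A, from -0.16 to 0.12 in library B, from -0.08 to 0.06 in control library A and from -0.06 to 0.07 in control library B. Chromosome 2 held 4.12% of the placed fragments (95% exact binomial interval 3.94 to 4.32) in overexpression library A and 5.23% (5.005 to 5.47) in library B. It held 5.23% (5.03 to 5.43) in control library A and 5.32% (5.12 to 5.52) in control library B. The intervals cover counting error only. Only the first of these intervals fails to overlap the other 3. Intervals were computed for chromosome 2 alone, and library A also stood apart in the fragment shares of other chromosomes. Chromosome 6 held 5.47% in overexpression library A against 6.21% in library B and 6.15% and 6.12% in control libraries A and B. For chromosome 4 these shares were 4.51% against 3.98%, 4.03% and 4.05%. The pooled columns cannot be split for higher genes, so whether those follow the same library was not tested, and neither was the part of library A in the 46 lower genes of chromosome 2. Without chromosome 2 the fold rule gave 227 higher and 407 lower genes.

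**Figure D3:**
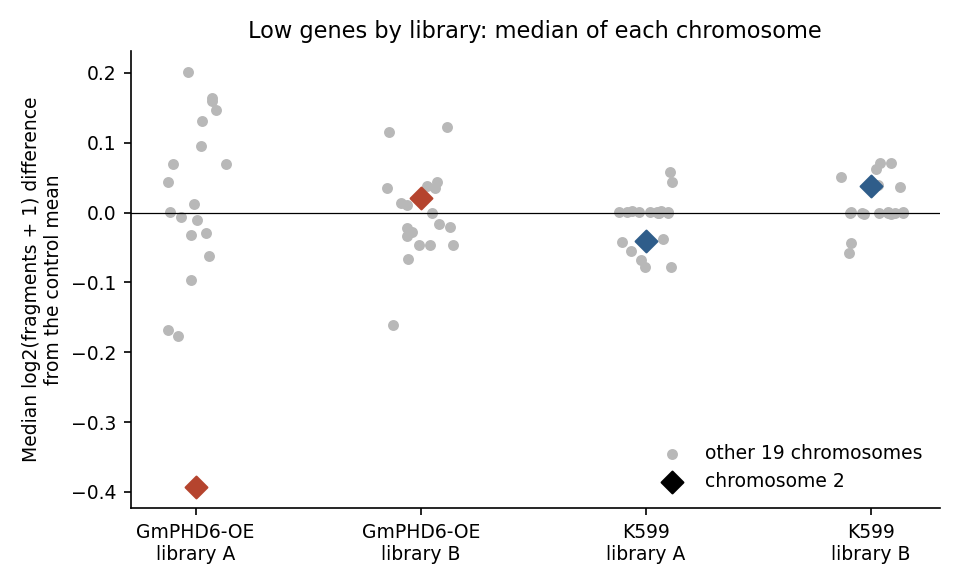
Median log2(fragments + 1) difference from the mean of the control libraries for each chromosome (points) in the 2 GmPHD6-OE and the 2 K599 libraries, over 3760 low genes, each library centred on its own median. Chromosome 2 (diamond) lies at -0.39 in GmPHD6-OE library A and between -0.04 and 0.04 in the other 3 libraries.

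Genes past the rule also lay side by side. Outside the stretch there were 8 runs of at least 3 neighbouring tested genes past the rule in the same direction, 4 higher with 18 genes and 4 lower with 15 genes. A further 25 runs had only 2 genes, 8 higher and 17 lower. Neighbouring plant genes are often tandem copies of one another, and fragments of near-identical copies can be split among them by the authors' counting. Whether the genes of a run are copies was not examined here.

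On chromosome 3, 6 genes from 4704294 to 4782905 were higher. Their levels ran from 5.27 to 44.3 FPKM in overexpression, from 2.79 to 21.5 in RNAi and from 1.98 to 17.0 in control. All 6 differences lay between 1.04 and 1.82, and the tested genes on either side had differences of 0.72 and -0.24. The run had a sharp edge on one side. The lower end of its differences was limited by the rule, which asks for at least 2-fold on this scale.

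On chromosome 8, the gene with the largest gain, Glyma.08G339500, lay between a pair of neighbours that were higher too. The neighbour before it (45583866 to 45584828) stood at 55.9 FPKM in overexpression, 6.77 in RNAi and 2.79 in control, a difference of 3.91. The neighbour after it (45594731 to 45596599) stood at 5.17 FPKM in overexpression, 3.47 in RNAi and 1.36 in control, a difference of 1.39. The levels of these neighbours differ widely within the overexpression column.

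On chromosome 15, 6 genes from 13467901 to 13545084 were higher, and these are genes of low level in control. Their levels ran from 1.74 to 11.7 FPKM in overexpression, from 0.0669 to 0.570 in RNAi and from 0.183 to 1.10 in control, with differences from 1.21 to 2.80. Libraries could be told apart in both columns for 3 of the 6. The first (13482720 to 13484803) had 24.4 and 2.63 fragments in overexpression libraries A and B against 1.96 and 2.03 in control libraries A and B. The second (13522843 to 13525059) had 22.1 and 6.58 fragments against 0.978 and 2.03, and the third (13542793 to 13545084) had 24.4 and 2.63 against 1.96 and 1.01. In all 3 genes library A held most of the overexpression fragments. Library B was little above the control libraries in the first and the third gene and further above them in the second.

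On chromosome 17, 3 genes from 12106585 to 12148922 were higher with overexpression. The first and second stood at 1.68 and 1.82 FPKM in overexpression, 4.08 and 4.40 in RNAi and 0.171 and 0.213 in control. The last stood at 63.7 FPKM in overexpression, 81.7 in RNAi and 11.9 in control. One of these gene models overlaps another gene model, so its fragments may be shared. In all 3 genes control was the lowest column.

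The steepest lower run lay on chromosome 11 from 9858538 to 9893357. Its 5 genes stood at 2.43 to 8.14 FPKM in overexpression, at 19.999 to 47.5 in RNAi and at 10.6 to 45.8 in control, with differences from -2.64 to -1.75. The genes on either side stood at 1.43 FPKM in overexpression against 1.147 in control and at 1.04 against 1.22, with differences of 0.18 and -0.12. The lower level thus began and ended with the run, and RNAi levels lay at or above control in each of its genes.

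On chromosome 17 a run of 4 genes from 5028346 to 5042804 was lower with overexpression. Its levels ran from 1.27 to 11.6 FPKM in overexpression, from 21.9 to 57.9 in RNAi and from 6.14 to 30.3 in control. On chromosome 16, 3 genes from 33905053 to 33930566 were lower and stood at 0.559, 3.43 and 36.4 FPKM in overexpression, at 5.26, 26.9 and 249 in RNAi and at 6.03, 8.80 and 91.3 in control. The first of these had 9.96 and 2.63 fragments in overexpression libraries A and B. On chromosome 14, 3 genes from 7032607 to 7049593 stood at 1.44, 0.415 and 2.18 FPKM in overexpression, at 7.19, 0.574 and 11.7 in RNAi and at 3.95, 2.30 and 6.22 in control. In these 3 runs most genes had their highest level in RNAi.

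**Figure D4:**
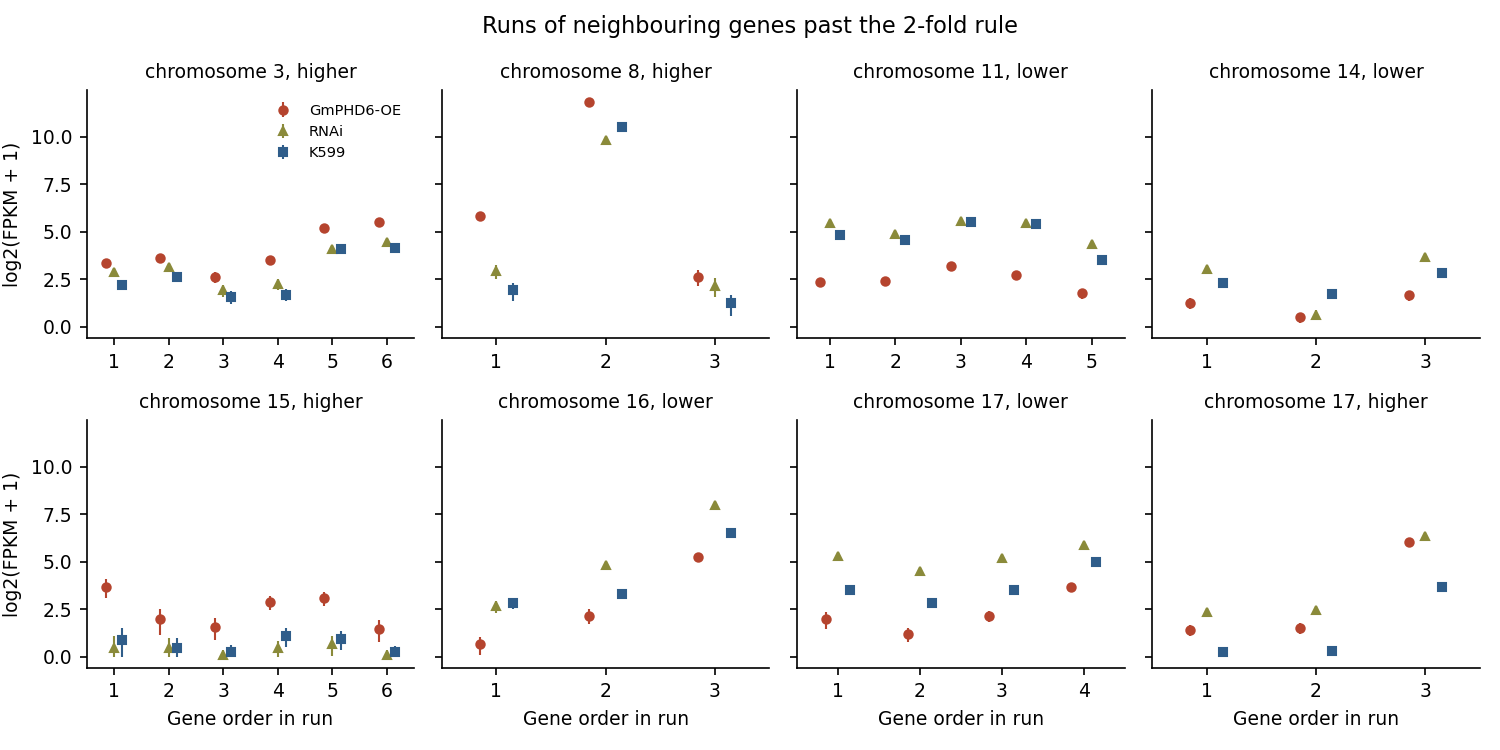
Level of each gene, as log2(FPKM + 1), in the 8 runs of neighbouring genes past the 2-fold rule, in GmPHD6-OE (circles), RNAi (triangles) and K599 (squares); bars are the authors' bounds and the horizontal axis is the order of genes in the run. In the run on chromosome 11 the GmPHD6-OE values, 2.43 to 8.14 FPKM, lie below the K599 values of 10.6 to 45.8 FPKM.

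Genes past the rule were mostly short. Tested genes were put in 4 classes of equal size by gene span, the distance from start to end with introns included. In the shortest class, up to 2272 bases, 150 genes were higher (1.86%) and 239 lower (2.97%). In the longest class, from 6013 bases, 16 were higher (0.199%) and 40 lower (0.497%). The median FPKM of the classes was alike, at 6.47 in overexpression against 6.54 in control in the shortest and 5.78 against 5.81 in the longest. The SD of the differences was 0.55 in the shortest class and 0.27 in the longest. Why the scatter was wider in short genes, and its part in the calls, was not tested.

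An extreme case was a gene model of 159 bases on chromosome 2 (45149236 to 45149395), named after its values were seen. It stood at 461 FPKM in overexpression, 35.1 in RNAi and 12.6 in control, a difference of 5.08. The overexpression value came from 1.11 fragments in library A and 31.6 in library B, and the control libraries A and B had 0 and 1.01. One of its overexpression libraries was thus near the control level.

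Higher genes were also more frequent where gene models were sparse. In the class of genes with the fewest gene models around them, 2 to 79 per 1 Mb window, 89 of 8303 genes were higher (1.07%), against 0.544% to 0.654% in the 3 other classes. Lower genes showed no such pattern, at 1.34% in the sparse class against 1.32% to 1.49% in the others. The median difference was 0.02 in the sparse class and 0.01 in the densest. Gene models that overlap another gene model had fewer calls, 13 higher and 21 lower of 2223 (1.53%, against 2.13% of all tested genes).

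**Figure D5:**
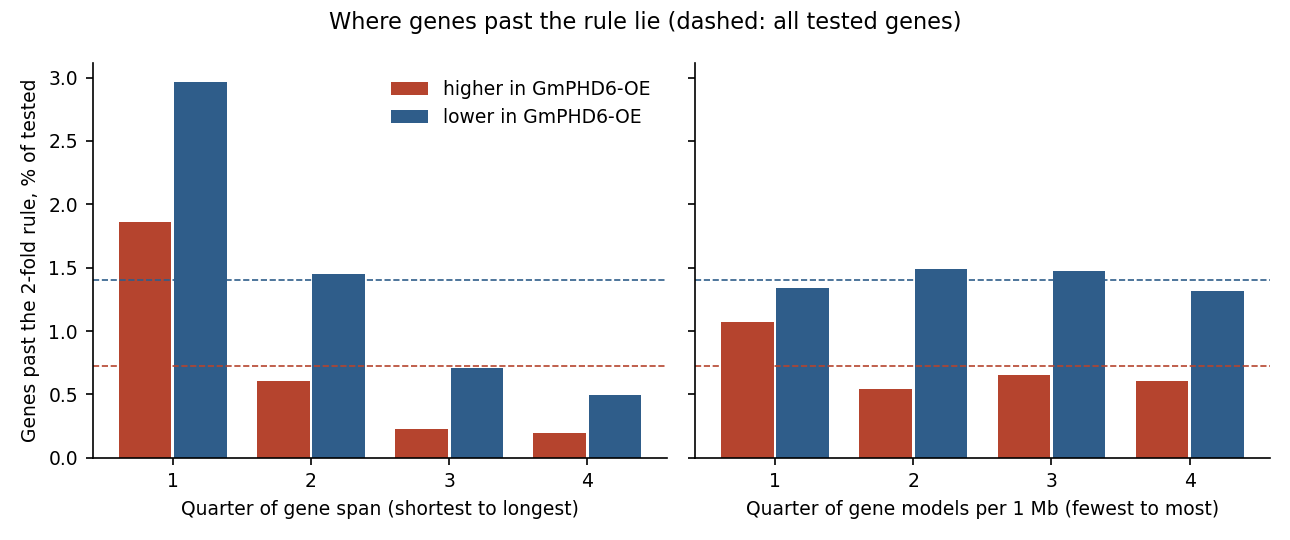
Share of tested genes past the 2-fold rule, higher (left bar) and lower (right bar) in GmPHD6-OE, by class of gene span and by class of gene models per 1 Mb; dashed lines give all tested genes. The shortest class had 1.86% higher and 2.97% lower genes, the longest 0.199% and 0.497%.

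Members at exactly 0 in a column were kept out of the fold rule, as such a 0 may stand for an estimate that failed. Of 202 such members, 115 were listed at 0 in overexpression and 87 in control. They include the gene model of chromosome 4 with the highest control value. They were short, with a median span of 216 and 359 bases against 3871 over all tested genes. In 110 of the 115 and 83 of the 87 the authors' lower bound in the other column was 0 as well. Among the exceptions, a gene model of 123 bases on chromosome 12 (39192402 to 39192525) was listed at 0 in overexpression and in RNAi and at 1590 FPKM (83.1 to 3098) in control. A gene on chromosome 17 (32181854 to 32182693) was listed at 0 in overexpression and in RNAi and stood at 6.82 FPKM (5.35 to 8.28) in control. The same split of listed 0 and measured level was seen in the other direction. A gene on chromosome 11 (9392304 to 9393202) stood at 1.497 FPKM (0.764 to 2.23) in overexpression and 0.784 in RNAi and was listed at 0 in control. Its recovered fragments were 29.9 and 10.5 in overexpression libraries A and B against 0 in both control libraries.

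For low genes a test between libraries was possible. The fit did not require 1 FPKM, so the genes fitted can include gene models that are not members. Over 3384 genes fitted with limma, 273 had an unadjusted p under 0.05 between overexpression and control. Of them, 1 passed the Benjamini-Hochberg adjusted threshold (0.0296% of the genes fitted). That gene (chromosome 19, 47082132 to 47085750) was listed at 0 in overexpression and had 43.02 and 17.2 fragments in control libraries A and B, with a log2 difference of -4.82 ± 0.76 (SE) and an adjusted p of 0.0229 by limma. Leaving out genes that any column lists at 0, limma called none of 3320 genes (0 calls), with 269 at an unadjusted p under 0.05. Without control library A or control library B it called 0 as well, with 132 and 84 genes at an unadjusted p under 0.05.

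Few genes past the fold rule were low enough for this. Of the 686, 27 higher and 10 lower genes had fragments split in both columns and a mean of 5 or more. Both overexpression libraries lay above both control libraries in 25 of the 27 (18.9% of all 3760 placed genes did so). They lay below both in 10 of the 10 (21.2% of all). The 3760 placed genes were not held to the 1 FPKM limit, so they can include gene models that could not pass the rule. These genes were chosen on the means of the same libraries, so the counts describe them and support nothing further. A gene on chromosome 16 (6963613 to 6964246) had 24.4 and 32.9 fragments in overexpression libraries A and B against 8.80 and 4.05 in control, a limma log2 difference of 2.06 ± 0.51 (SE) with an adjusted p of 0.327. A gene on chromosome 12 (5468986 to 5469193) had 2.21 and 9.21 fragments in overexpression against 25.4 and 25.3 in control, a difference of -2.20 ± 0.56 with an adjusted p of 0.327 by limma. The libraries of these genes did not overlap, yet neither passed the adjusted test. By contrast, a gene on chromosome 8 (41904107 to 41904767) had 0 and 69.7 fragments in overexpression libraries A and B against 2.93 and 4.05 in control, so its fold rested on library B.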

How the data were processed

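The authors deposited FPKM values per gene model and condition, with a lower and an upper bound and a status flag, the libraries of a group having been combined, per the file headers. The submitters' processing notes name TopHat, a splice-aware aligner. The sources used here give neither its version nor the quantifier, the confidence level of the bounds or the strand setting. Coordinates are as deposited (gene models Wm82.a2.v1), with the base of their starts not given. Differences are log2(FPKM + 1). Fragments per library were accepted when within 0.75 of the rounding error of a possible pair, for values with a chance match under 0.05. They were multiplied by 1.21 in overexpression and 1.13 in RNAi, since fragments per unit of FPKM differed between columns, a step added to the planned fit. limma 3.58.1 (R 4.3.3) was fitted with a mean-variance trend to the 6 libraries at a mean of at least 5 fragments. The fit and the fold rule were also run on simulated data with known changes. For the fold rule these held counting error only, so they cannot show how the rule behaves with spread between libraries. For limma they held a fixed spread and large changes. Named genes were the 2 per direction with the largest change in FPKM past the rule. Other genes and runs are given by position. The members, lists and rules were chosen with earlier results of these data known. Pseudocounts, filters, scalings, larger folds and left-out libraries were tried as alternatives. No gene lists could be matched.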

Additional observations from a re-analysis of the deposited data

How the results depend on the processing

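Counts past the fold rule, 233 higher and 453 lower, stayed within 1.5 times in 18 of 24 recomputed counts. Dropping the filter on FPKM could not change them, since a 2-fold difference on this scale needs at least 1 FPKM. Leaving out overlapping gene models or chromosome 2, or keeping the stretch, changed few genes and could hardly move the counts out of that range. They were 393 and 794 with log2(FPKM + 0.1), 152 and 274 among genes averaging 5 FPKM or more, a smaller set, and 40 and 50 at 4-fold, a stricter rule. Lower genes outnumbered higher genes under each alternative run. At 8-fold or more, which was not among these alternatives, 13 genes were higher and 3 lower. The median difference over all genes was 0.026 among genes averaging 5 FPKM or more and -0.0023 with columns rescaled to the same sum, where it changed sign. With the highest control gene left out of those sums it was -0.046, with 195 higher and 537 lower genes. The median of chromosome 2 was -0.12 with log2(FPKM + 0.1), -0.12 with rescaled columns and -0.17 with that gene left out of the sums. Runs of at least 2 neighbours numbered 33. limma called 0 genes with only overexpression and control libraries in the fit (268 at an unadjusted p under 0.05) and 0 without genes listed at 0. Leaving out 1 library gave 0 to 1 genes, the lone library of a group being taken to vary like the others. Leaving out chromosome 2 or the highest control gene, the settings for its median, unscaled fragments and the recomputed differences of named genes were chosen after seeing the data. The 20 recomputations covered the named genes and the gene model of chromosome 9 with the largest difference there. They gave 0 changes of sign and 0 values under 2-fold, but these genes were picked for large changes. No paired analysis was possible because the deposited columns combine the replicates and recovered libraries carry no replicate number. Recovery stops near 37 fragments in overexpression, so the spread between libraries is unknown for most genes.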
